A study of Homo sapiens with 8 samples.

Results

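ZWILCH and 9 other genes of the kinetochore checkpoint were followed in DLD-1 cells that received the microRNA miR-143. The genes were chosen by name: ZWILCH with its complex partners ZW10 and KNTC1, the linking proteins ZWINT and SPDL1, and the checkpoint proteins BUB1, BUB1B, BUB3, MAD2L1 and TTK. ZWILCH was picked because it was among the lowest genes in this very comparison, so its own difference is given as a description and was not tested. The 10 genes make up 10 of 19752 genes on the array, and 23 of the 41091 probe sets that carry a single gene symbol belong to them. The question was whether the lower ZWILCH level was shared by its partners or by the checkpoint kinases.

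DLD-1 is an established line of human colorectal adenocarcinoma cells. In the miR-143 group 4 cultures were transfected with a miR-143 duplex at 50 nM with Lipofectamine 2000, a lipid carrier, and RNA was taken 24 h later. In the mock group 4 cultures went through mock transfection and were harvested at the same time. The study describes the 4 cultures of a group as biological replicates. The labels name no oligonucleotide for the mock cells, and a scrambled duplex was not among the arrays used here. All values come from 1 cell line at 1 time.

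The kinetochore is the protein structure through which a chromosome binds the spindle in mitosis. At kinetochores that are not yet attached to microtubules, the spindle assembly checkpoint is assembled and delays anaphase. ZWILCH, ZW10 and KNTC1 (also called ROD) form the RZZ complex, which brings the motor dynein and the MAD1 and MAD2 proteins to the kinetochore. TTK, also known as MPS1, is the kinase at the top of the pathway, and BUB1, BUB1B (BUBR1), BUB3 and MAD2L1 (MAD2) carry the signal that holds back the anaphase-promoting complex.

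A microRNA recognises its targets mainly by its seed, bases 2 to 8 of the mature strand. Both mature strands of the human miR-143 hairpin are shown because they are what the transfected duplex imitates. They are read from 5′ to 3′ as RefSeq gives them on GRCh38.p14, with the seed in capitals. The first lies at chr5:149428978-149428998 and the second at chr5:149428944-149428965, both on the plus strand.
hsa-miR-143-3p: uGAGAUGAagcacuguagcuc
hsa-miR-143-5p: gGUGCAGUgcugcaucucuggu
The strands do not share a seed. Sites for these seeds in the messages of the 10 genes were not analysed here.

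All values are log2 intensities after RMA, a scale on which a difference of 1 is a doubling. Array medians lay between 7.15 and 7.24, and the median of all gene means was 7.56. Each gene is represented by its brightest probe set, and for all 10 members this set lay above that median. Of 10 markers of colorectal epithelium 8 were above the median, led by KRT18 at 14.65 and EPCAM at 13.60, while LGALS4 (7.12) and CEACAM5 (7.34) were not. The array medians of 8 fibroblast and smooth muscle markers lay between 7.08 and 7.41, and those of 7 leukocyte and endothelial markers between 6.87 and 7.20. Single genes of these 2 lists were above the median of all gene means, 3 of the 8 and 1 of the 7, the highest at 8.14. Replicate 4 stood apart in both groups. Among genes above the median level it was the highest array for 71.6% in the miR-143 group and for 73.3% in the mock group. Results on the members are therefore also given without the mock array of replicate 4 or with replicate numbers as pairs.

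ZWILCH was lower on every miR-143 array than on any mock array. With its brighter probe set (222606_at) the miR-143 arrays of replicates 1 to 4 read 10.72, 10.71, 10.53 and 10.99. The mock arrays read 11.57, 11.36, 11.37 and 11.79. The group means were 10.74 ± 0.19 and 11.52 ± 0.20 (SD, n = 4), which places ZWILCH at 58.1% of its mock level, a log2 difference of −0.784. In bulk RNA less ZWILCH message per cell and fewer cells that carry it cannot be told apart. Only 1 of the 19752 genes had a more negative difference.

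The other ZWILCH probe set (218349_s_at) gave nearly the same difference, −0.785, with miR-143 arrays at 9.78, 9.54, 9.44 and 10.05 and mock arrays at 10.39, 10.35, 10.33 and 10.88. Its groups did not overlap either. Both sets went up and down together over the 8 arrays (Pearson r = 0.978), a description that includes the difference between groups. As background, all miR-143 arrays lay below all mock arrays for 1.24% of all genes and for 1.25% of all probe sets. ZWILCH was selected from these genes, so nothing is read from its place among them.

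**Figure D1:**
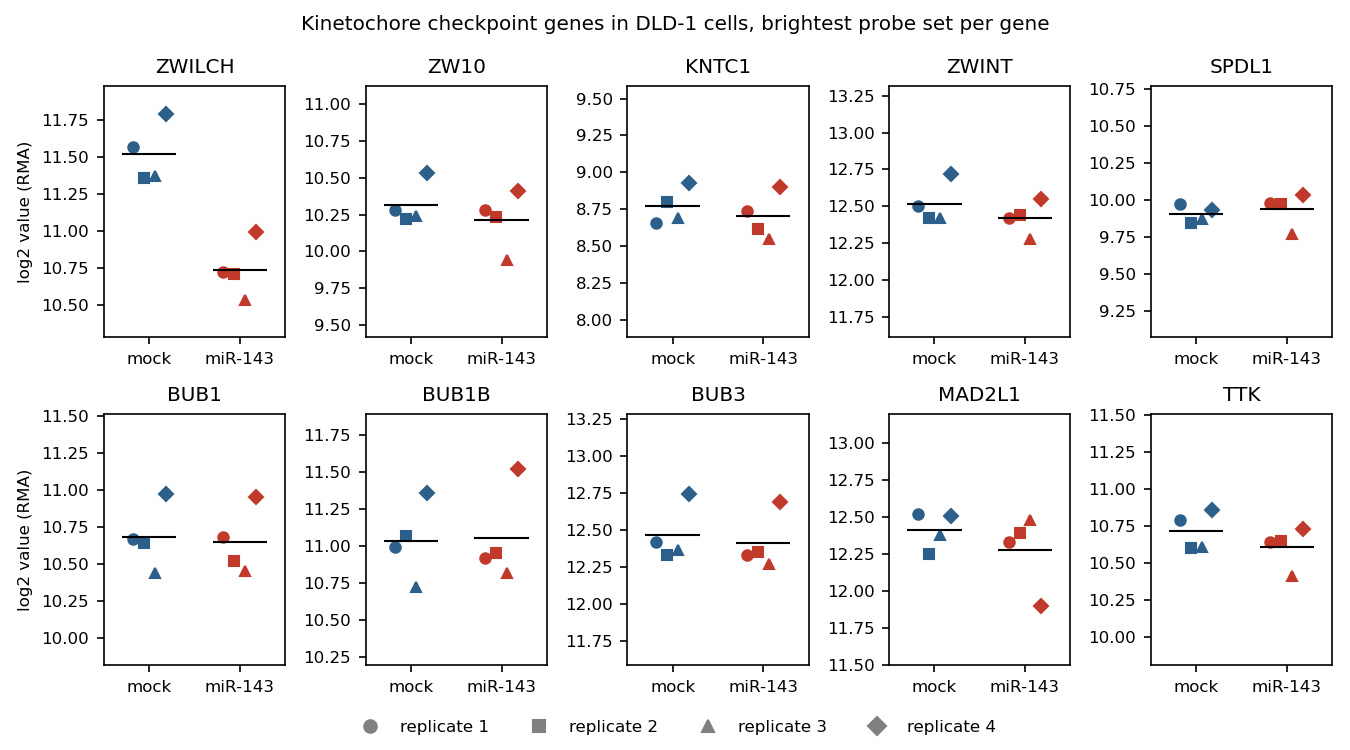
Log2 values after RMA of the brightest probe set of each of the 10 genes, by group (mock and miR-143, 4 arrays each). Symbols mark the replicate number, lines the group means, and every panel spans the same range of log2 units. ZWILCH is the panel with separate groups (10.53 to 10.99 against 11.36 to 11.79), and in the other 9 panels the groups overlap.

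ZW10, which with ZWILCH and KNTC1 makes up the RZZ complex and also works in traffic from the Golgi to the endoplasmic reticulum, did not show a difference of this size. Its miR-143 arrays were at 10.28, 10.23, 9.94 and 10.41, and its mock arrays at 10.28, 10.22, 10.24 and 10.53. Only the miR-143 array of replicate 3 lay below all mock arrays, and the others lay within the mock range. The log2 difference was −0.10 with a 95% interval from −0.34 to 0.14 (limma, SE 0.107, adjusted p = 1). It was −0.03 without the mock array of replicate 4 and −0.008 without the miR-143 array of replicate 3. With both arrays of replicate 4 or 3 left out, it was −0.095 and −0.033.

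KNTC1, the large subunit on which the RZZ complex is built, read 8.74, 8.62, 8.55 and 8.90 with miR-143 and 8.66, 8.80, 8.69 and 8.93 in mock cells. The groups overlapped over most of their range. Its log2 difference was −0.066, with a 95% interval from −0.27 to 0.14 (limma, SE 0.0901, adjusted p = 1). For ZW10 and KNTC1 the interval did not reach the −0.784 measured for ZWILCH. ZWILCH was chosen on that value, so this is a description and the distance was not tested.

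The distance of ZWILCH from its partners changed on every array. Subtracting the ZW10 value from the ZWILCH value of the same array gave 0.44 to 0.58 on the miR-143 arrays and 1.12 to 1.29 on the mock arrays. For KNTC1 the same subtraction gave 1.97 to 2.10 and 2.56 to 2.92. These are differences between probe sets that bind with unequal strength, so they give no ratio of one message to another. They also carry the ZWILCH difference on which the gene was chosen and were not tested.

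ZWINT and SPDL1 link the RZZ complex to its neighbours. ZWINT, which binds the outer kinetochore and recruits ZW10, was among the brighter members and read 12.42, 12.44, 12.28 and 12.55 with miR-143 against 12.50, 12.42, 12.42 and 12.72 in mock cells. The difference was −0.092 (95% interval −0.28 to 0.10, limma adjusted p = 1). SPDL1, the adaptor called Spindly that carries dynein to the RZZ complex, read 9.98, 9.97, 9.77 and 10.03 against 9.97, 9.84, 9.87 and 9.93. Its difference was 0.033 (95% interval −0.12 to 0.19, limma adjusted p = 1), and the sign was positive as for only 1 other member, BUB1B. The remaining SPDL1 probe set was dim, with group means of 6.87 and 6.87.

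Of the checkpoint kinases, TTK read 10.64, 10.65, 10.41 and 10.73 with miR-143 against 10.79, 10.60, 10.61 and 10.86 in mock cells. One miR-143 array, that of replicate 3, was below the mock range. TTK differed by −0.105 (95% interval −0.30 to 0.09, limma adjusted p = 1). BUB1, the kinase that recruits further checkpoint proteins, read 10.68, 10.52, 10.45 and 10.95 against 10.67, 10.64, 10.44 and 10.97, and these ranges are almost the same. Its difference was −0.030 (95% interval −0.33 to 0.27, limma adjusted p = 1), and its 4 dimmer probe sets lay between −0.115 and −0.019.

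BUB1B, a part of the complex that inhibits the anaphase-promoting complex, varied most between cultures. It read 10.92, 10.95, 10.82 and 11.52 with miR-143 and 10.99, 11.07, 10.72 and 11.36 in mock cells, so replicate 4 was far above the others in both groups. The difference was 0.015 with the widest interval of the members without pairs, −0.36 to 0.40 (limma adjusted p = 1). With pairs its interval was −0.11 to 0.14, and that of MAD2L1 was wider, −0.36 to 0.08. BUB3, the adaptor that holds BUB1 and BUB1B at the kinetochore, read 12.33, 12.35, 12.27 and 12.69 against 12.42, 12.33, 12.36 and 12.74. Its difference was −0.050 (95% interval −0.31 to 0.21, limma adjusted p = 1). This set carries the suffix x, which marks probes that may also bind other messages. The other 5 BUB3 sets lay between −0.154 and −0.004, and 2 of them were dim. The set at −0.154 (201456_s_at) was not dim, with group means of 10.61 with miR-143 and 10.77 in mock cells. Its 95% interval was −0.45 to 0.14 without pairs and −0.26 to −0.05 with pairs (limma adjusted p = 0.287 with pairs).

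MAD2L1, the protein that inhibits CDC20 when the checkpoint is on, was measured by 3 probe sets that did not give the same picture. The brightest set read 12.33, 12.39, 12.48 and 11.90 with miR-143 against 12.52, 12.25, 12.38 and 12.51 in mock cells. Its difference of −0.141 (95% interval −0.41 to 0.13, limma adjusted p = 1) came from the miR-143 array of replicate 4, which was the lowest of the 8, and without pair 4 the difference was 0.017. That array was not low with the other sets, where it was, to 2 decimals, level with the highest miR-143 array in one set and, at 8.83, lay within a miR-143 range of 8.75 to 8.87 with the other.

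The dimmest MAD2L1 probe set (236312_at) was the 1 set among the 21 of the other members whose groups did not overlap. Its miR-143 arrays read 8.87, 8.76, 8.75 and 8.83 and its mock arrays 9.07, 9.03, 8.97 and 9.19. The means were 8.80 ± 0.06 and 9.07 ± 0.09 (SD, n = 4), 16.9% lower with miR-143, with a log2 difference of −0.27 (95% interval −0.40 to −0.13). Without pairs it did not pass (limma adjusted p = 0.77 over all probe sets), and with pairs it did (limma adjusted p = 0.0454). With pairs but without any one pair, the adjusted p was between 0.103 and 0.229 in limma, so the call needed all 4 pairs. The third set (1554768_a_at) had a difference of −0.168 and a limma adjusted p of 1 without pairs and 0.414 with pairs.

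**Figure D2:**
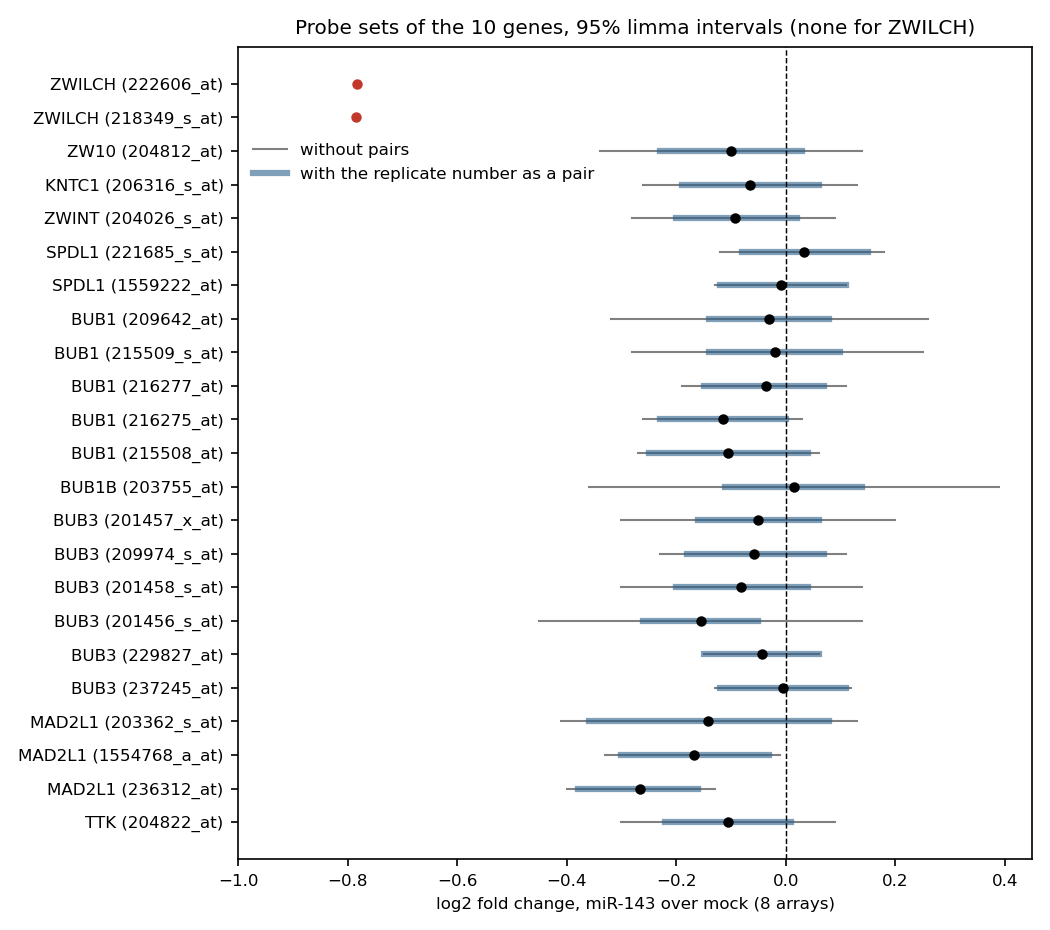
Log2 fold change (miR-143 over mock, 8 arrays) of the 23 probe sets of the 10 genes, with 95% intervals from limma without pairs (thin lines) and with the replicate number as a pair (thick lines). The ZWILCH sets are shown as points without an interval at −0.784 and −0.785, and the nearest set of another member is the MAD2L1 set 236312_at at −0.27.

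Over the 9 members other than ZWILCH, limma without pairs called 0, as it called 0 of all 19752 genes, which is 0% of them. At an unadjusted p under 0.05 the counts were also 0 of the 9, against 477 of all genes. With pairs limma again called 0 of the 9, with adjusted p between 0.598 and 0.967, while 156 of all genes were called, which is 0.79% (123 lower, 0.623%, and 33 higher). Among the 21 other probe sets limma called 0 without pairs, where 1 of all sets passed, or 0.00243%. With pairs it called 1, the MAD2L1 set, beside 216 of all sets, or 0.526%. An unadjusted p under 0.05 was reached by 2 of the 21 sets without pairs (MAD2L1 236312_at and 1554768_a_at). With pairs it was reached by 3, these and the BUB3 set 201456_s_at. Of the 21 sets 19 had a negative difference. The matching shares over all probe sets are not given here, so nothing is read from these counts.

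The 9 differences ranged from −0.141 to 0.033 with a median of −0.066, and 7 of them were negative. This median moved with single arrays. Without the mock array of replicate 4 it was −0.013 with 5 of 9 negative, and without that of replicate 3 it was −0.109. Without the miR-143 array of replicate 2, 3 or 4 it was −0.038, −0.008 and −0.135. Leaving out 1 array unbalances the groups, since replicate 4 was high in both. With both arrays of replicate 1, 2, 3 or 4 left out, the median was −0.093, −0.076, −0.042 and −0.049. Negative differences then numbered 7, 7, 8 and 7 of 9. After cyclic loess, a renormalization between arrays, it was −0.013 with 5 of 9 negative. For comparison the median over all genes was −0.0091, that over genes above the median level was −0.0295, and 55.6% of all genes were negative. The 95% intervals of the 9 genes reached from −0.41 to 0.40 without pairs and from −0.36 to 0.15 with pairs. These bounds are the extremes over the 9 genes and not a limit for any single gene. Each interval included 0 in both fits, so with 4 arrays in a group none of the 9 differences could be told from 0. This holds for the brightest sets, since dimmer sets of MAD2L1 and BUB3 had intervals without 0, for BUB3 with pairs only.

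When arrays of the same replicate number were subtracted, ZWILCH was lower in all 4 pairs, with differences of −0.85, −0.65, −0.84 and −0.79. The 4 differences of ZW10 were 0.00, 0.01, −0.30 and −0.11, and those of KNTC1 were 0.09, −0.18, −0.14 and −0.03. With its brightest probe set, no other member was lower in all 4 pairs. To 2 decimals KNTC1, ZWINT, BUB3 and TTK were lower in 3, ZW10, BUB1, BUB1B and MAD2L1 in 2, and SPDL1 in 1. With a dimmer set, MAD2L1 (236312_at) was lower in all 4 pairs, at −0.21, −0.28, −0.22 and −0.36. So was BUB3 (201456_s_at), at −0.17, −0.10, −0.18 and −0.17.

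**Figure D3:**
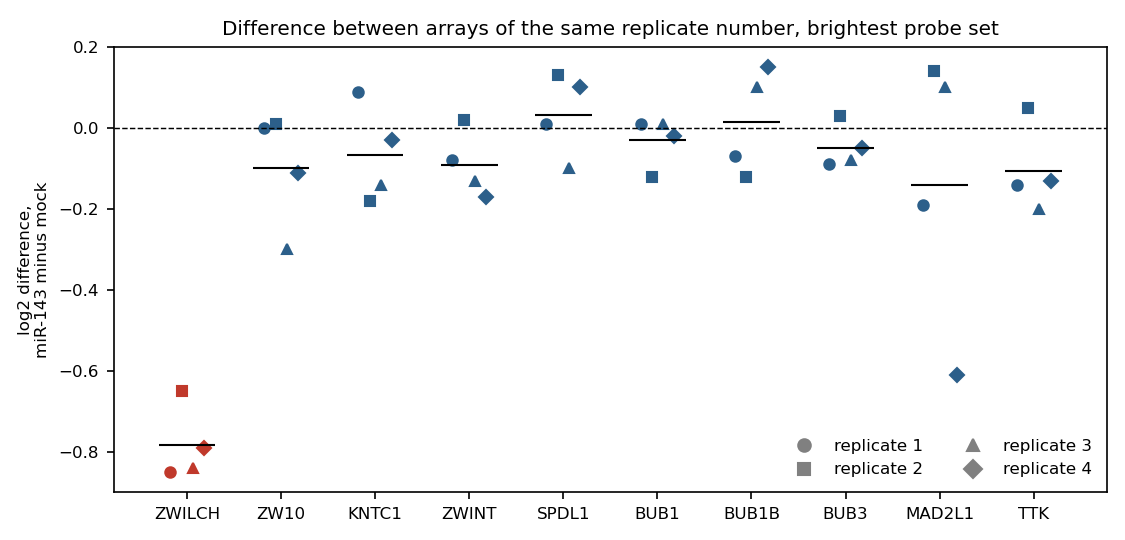
Log2 difference between the miR-143 and the mock array of the same replicate number, brightest probe set of each gene (lines mark the mean of the 4 differences). ZWILCH lies between −0.85 and −0.65 in all 4, while the points of the other genes lie between −0.30 and 0.15, except MAD2L1 in replicate 4 at −0.61.

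Most members shared an order of cultures within a group, which most genes above the median level also showed. Replicate 4 was the highest miR-143 array for 9 of the 10 genes (all but MAD2L1) and the highest mock array for 8 (all but SPDL1 and MAD2L1). Among genes above the median level the shares were 71.6% and 73.3%, so the order is not particular to the members. For ZWILCH replicate 4 exceeded the mean of replicates 1 to 3 by 0.34 with miR-143 and by 0.35 in mock cells. For BUB1 the excess was 0.40 and 0.39, and for BUB1B 0.62 and 0.44. The median over genes above the median level was 0.215 and 0.222. Replicate 3 was the lowest miR-143 array for 9 of the 10 members and for 67.6% of those genes.

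This shared variation also shows in correlations with ZWILCH, which are given as descriptions over the same 8 arrays. After the group means were removed, r with ZWILCH was 0.97 for ZWINT, 0.95 for BUB3, 0.93 for TTK and BUB1 and 0.92 for ZW10. It was 0.87 for BUB1B, 0.78 for KNTC1 and 0.76 for SPDL1, but −0.33 for MAD2L1. The same r over all genes is not given here, so these values are not read as particular to the members. With the group difference left in, r was 0.72 for TTK and ZWINT, 0.64 for ZW10, 0.54 for KNTC1 and 0.52 for BUB3. It was 0.44 for BUB1, 0.32 for BUB1B, 0.22 for MAD2L1 and 0.11 for SPDL1. The 5 genes most like ZWILCH by r with the group difference left in, among 9875 genes above the median level, were STARD4 (0.991), RWDD4 (0.990), HIPK2 (0.989), ABHD5 (0.989) and DUBR (0.988). STARD4 carries cholesterol within the cell, HIPK2 is a protein kinase and ABHD5 activates triglyceride breakdown. All 5 were lower on each miR-143 array than on any mock array, with log2 differences from −0.16 for DUBR to −0.55 for STARD4. Their r included the group difference on which ZWILCH was chosen, so the choice itself favoured such genes. Nothing is read from their separation.

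Proteins around the members in the same pathway were compared through 7 further lists, with 89 genes measured and 6 listed genes without a usable probe set. Without pairs limma called 0 of the 89 and with pairs 1, or 1.12% beside the 0.79% of all genes. Of the 89 differences 70 were negative (78.7%), with a median of −0.065. It was 0.004 with 43 negative without the mock array of replicate 4, −0.017 with 51 negative without the miR-143 array of replicate 3, and −0.133 with 82 negative without that of replicate 4. With both arrays of replicate 1, 2, 3 or 4 left out, it was −0.069, −0.084, −0.045 and −0.062. Negative differences then numbered 70, 71, 59 and 70. After cyclic loess the median was −0.024, with 61.8% negative. Single lists also moved when 1 array was left out, and after loess only the median of dynein and dynactin changed sign (0.044). At an unadjusted p under 0.05 there were 3 of the 89 genes without pairs, beside 477 of all 19752 genes. All miR-143 arrays lay below all mock arrays for 2 of the 89, beside 1.24% of all genes.

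The one gene called was CDC26, a small subunit of the anaphase-promoting complex, the ubiquitin ligase that the checkpoint holds back. CDC26 read 10.59, 10.64, 10.49 and 10.78 with miR-143 and 11.02, 10.85, 10.96 and 11.26 in mock cells. Every miR-143 array was below every mock array, and the log2 difference was −0.40. The limma adjusted p was 0.773 without pairs and 0.00847 with pairs. With pairs and 1 pair left out it was 0.0534, 0.0131, 0.0668 and 0.0726, so the call was lost without pair 1, 3 or 4. Among the 16 measured genes of this complex and its partners 13 were negative, with a median of −0.076 (−0.144 without the miR-143 array of replicate 4 and 0.006 without that of replicate 3). With both arrays of replicate 4 or 3 left out, this median was −0.059 and −0.0.

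In the KMN network, the outer kinetochore proteins that bind microtubules and serve as the platform for the checkpoint, 8 of 9 genes were negative with a median of −0.099. With 1 array left out the median was between −0.133 and −0.058, without the miR-143 array of replicate 4 and of replicate 3. MIS12, which anchors this network to the centromere, read 10.22, 10.29, 10.09 and 10.25 against 10.42, 10.36, 10.37 and 10.64. Its groups did not overlap, and at −0.23 it did not pass (limma adjusted p = 1 without pairs and 0.137 with pairs). NSL1, a subunit of the same complex as MIS12, was at −0.14 (0.384 with pairs).

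Of 15 other checkpoint regulators, among them CDC20, MAD1L1, PLK1 and AURKB, 13 had a negative difference and the median was −0.062. It was −0.178 without the miR-143 array of replicate 4, 0.013 without the mock array of replicate 4 and −0.087 without both. With or without pairs, limma called 0 of them. The lowest p with pairs belonged to TPR (−0.20, adjusted p = 0.271 in limma), a nuclear pore protein that binds MAD1 and MAD2, and SGO2 (−0.18, 0.369), which protects cohesion at centromeres. Of 21 centromere proteins 19 were negative with a median of −0.078, with ITGB3BP at −0.18 and the centromeric histone CENPA at −0.17. This median was −0.112 without the mock array of replicate 2 and −0.032 without that of replicate 4. With both arrays of replicate 2 or 4 left out, it was −0.104 and −0.086. The 3 genes of the SKA complex, which follows microtubule ends, had a median of 0.049, with SKA1 at 0.11. It was −0.046 without the miR-143 array of replicate 4 and 0.145 without the mock array of replicate 4. With both arrays of any 1 replicate number left out, it stayed between 0.042 and 0.056. In 18 genes of dynein and dynactin, the motor that RZZ recruits, 10 were negative with a median of −0.021, and DCTN5 was at −0.19 and DYNLL2 at −0.125. This median was −0.106 without the miR-143 array of replicate 4, 0.046 without the mock array of replicate 4 and −0.041 without both. Of 7 partners of ZW10 at the endoplasmic reticulum 6 were negative with a median of −0.051, with RINT1 at −0.154 and STX18 at −0.074. Here the median was −0.137 without the miR-143 array of replicate 4, 0.034 without the mock array of replicate 4 and −0.051 without both.

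Since kinetochore genes are made mostly in dividing cells, 12 proliferation markers were read beside them. Of these, 11 were negative, with a median of −0.158, and the median of the list lay between 11.33 and 12.07 on the miR-143 arrays and between 11.63 and 12.36 on the mock arrays. The median difference was −0.052 without the mock array of replicate 4, −0.26 without the miR-143 array of replicate 4, −0.083 without that of replicate 3 and −0.072 after cyclic loess. With both arrays of replicate 4 or 3 left out, it was −0.147 and −0.136. The 10 markers of colorectal epithelium were negative too, all 10 of them, with a median of −0.104 and KRT8 lowest at −0.32. Their median was −0.17 without the miR-143 array of replicate 4, −0.054 without that of replicate 3 and −0.044 after loess. With both arrays of replicate 4 or 3 left out, it was −0.116 and −0.045. The median of the proliferation markers was not tested against that of other lists. CDK1, the kinase that drives entry into mitosis, read 12.08, 12.11, 11.92 and 12.19 against 12.49, 12.25, 12.29 and 12.56. Its groups did not overlap, and its difference of −0.32 passed limma with pairs (adjusted p = 0.0298) but not without pairs (adjusted p = 1). With pairs and without pair 1, 3 or 4 the limma adjusted p was 0.153, 0.165 and 0.16. The part of the share of dividing cells in the ZWILCH values was not tested.

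**Figure D4:**
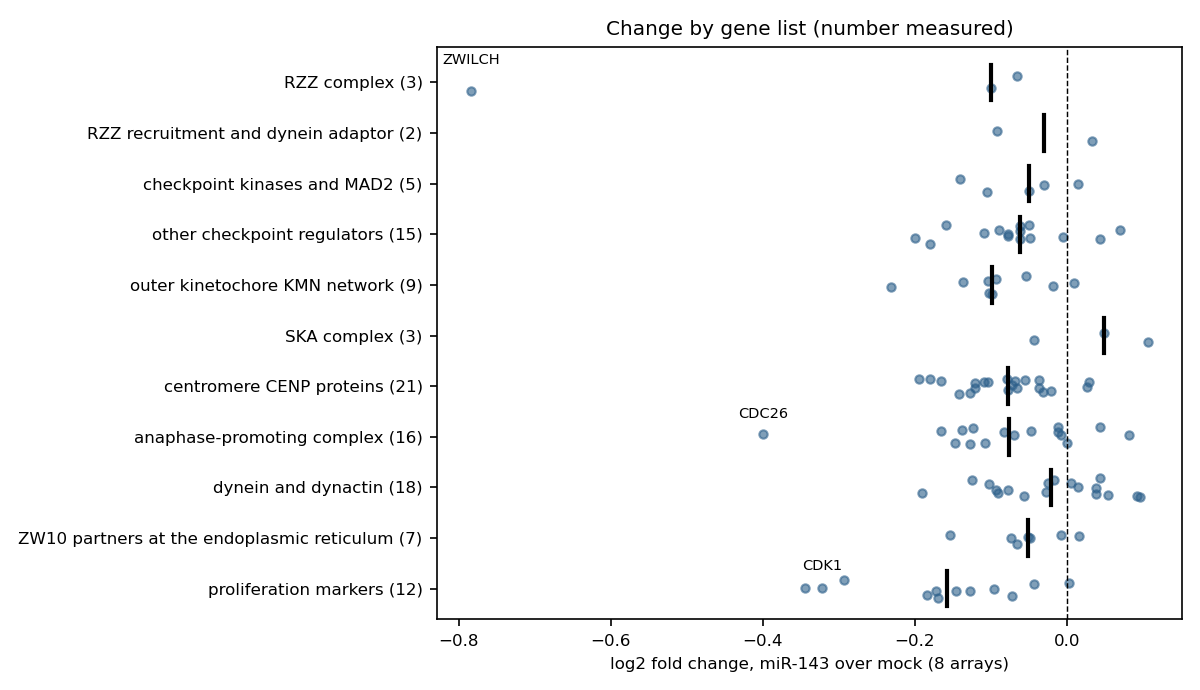
Log2 fold change (miR-143 over mock, 8 arrays) of each measured gene in the lists of kinetochore genes, their partners and proliferation markers, with bars at the list medians. ZWILCH stands at −0.784 and the next lowest points are CDC26 at −0.40 and the proliferation markers TOP2A at −0.34 and CDK1 at −0.32.

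Promoters were read to see what letters the members share. RefSeq windows of 300 bases, from 250 before to 50 after the start, were at hand for 7 members on GRCh38.p14, and the first listed start was taken where a gene had more than 1. KNTC1, BUB3 and TTK had no entry. Both strands were searched for TTTGAA, the core of the cell cycle gene homology region. On 1 strand or the other 5 of the 7 held it (BUB1B, MAD2L1, SPDL1, ZW10 and ZWINT), against 15.4% of all 27305 promoters. The matches of SPDL1, BUB1B and ZWINT began 20 to 31 bases before the start. That of ZW10 began 224 bases before it and that of MAD2L1 24 bases after it. ZWILCH did not hold TTTGAA, but was the 1 of 7 with an E2F-like TTTGGCG or TTTCGCG, which 3.22% of all promoters held. The letters CCAAT stood in 6 of 7, all but BUB1B, and in 35.7% of all. The ZWILCH match lies at chr15:66505293-66505317 and the BUB1B match at chr15:40161037-40161060, both on the plus strand and just before the start. They are shown with the matched letters in capitals because they mark where ZWILCH and another member differ in this respect.
ZWILCH: gcagttcagTTTGGCGgttccggta
BUB1B: accgttaaaTTTGAAacttggcgg
A match of letters is a description and shows no binding.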

How the data were processed

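RNA of 8 DLD-1 cultures was measured on Affymetrix arrays. The deposited table holds log2 values, made by the authors. The submitters' processing notes name RMA and affy, with no version in the sources used here. They were used as deposited, and all 8 columns were mapped to samples by title. An array gives no depth, so the number of arrays and the signal over background limit the precision. Of 54675 probe sets 41091 carried 1 symbol and were kept, 1801 carried several, 11721 none, and 62 were controls. The probe set of highest mean stood for each of 19752 genes.

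The groups were compared with limma 3.58.1 in R 4.3.3, by lmFit and then eBayes with two-sided p-values, on all genes or on all kept probe sets, with Benjamini-Hochberg adjustment over the whole table and 0.05 as the threshold. Intervals are at 95%. Tables and figures were made with Python 3.11.15, numpy 2.4.6, pandas 2.3.3 and matplotlib 3.10.9. The fits were tested on simulated data.

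Both groups carry replicate numbers 1 to 4, and no source says what a number stands for. After group means were subtracted, arrays with the same number correlated at 0.11, 0.17, 0.58 and 0.81 across genes, each above the limit of 0.1 set for treating them as pairs. Over all probe sets the values were 0.08, 0.11, 0.56 and 0.77, which do not meet it for replicate 1. After cyclic loess they were 0.07, 0.02, 0.36 and 0.68, which do not meet it for replicates 1 and 2. Across genes the highest correlation of a miR-143 array with a mock array of another number was 0.25, 0.54, 0.49 and −0.31, above that with its own number for replicates 1 and 2. The fit without pairs stayed the main one, and the fit with pairs is given where it changes a call.

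The members and lists were chosen with earlier results of these data known. Named were the members, in each list every gene called with or without pairs (otherwise the 2 of lowest p with pairs), and the 5 genes most correlated with ZWILCH. KRT18, EPCAM, LGALS4, CEACAM5, KRT8, TOP2A and, of the checkpoint regulators, CDC20, MAD1L1, PLK1 and AURKB were named in addition, the first 6 after their values were seen. Alternatives were other choices of probe set, cyclic loess, array weights, genes above the median level, pairs, and each array or pair left out.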

Additional observations from a re-analysis of the deposited data

Results flagged for a closer look

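With the ZWILCH probe set 218349_s_at, the mock array of replicate 4 stood far above the other mock arrays. It read 10.88, where the others lay between 10.33 and 10.39. The gap to the nearest array was 0.893 of the whole range of the group, above Dixon's critical value for 4 samples. This was the 1 group of 46 examined over the member probe sets to pass that value, and chance alone gives about 1 in 20. Replicate 4 was also the highest miR-143 array with this set, at 10.05.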

How the results depend on the processing

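ZWILCH stayed between −0.87 and −0.70 under all 18 alternatives, and 0 of the 9 other members passed limma under any of them. The number of genes called lower was 0 in the comparison reported, 123 with the replicate block (the paired fit), 31 after cyclic loess, 36 with array weights and 1 when the most variable probe set (by interquartile range) stood for a gene. Genes called higher numbered 33 with the replicate block, 21 after loess and 20 with array weights. With the replicate block and without pair 1, 2, 3 or 4, genes called lower were 57, 68, 33 and 42, and genes called higher 16, 11, 9 and 16. Leaving out single arrays without pairs gave 0 lower and 0 higher each time. The signs of 4 members changed, none of them called as a gene in any of these comparisons. BUB1 was 0.024 after loess and between −0.13 and 0.068 with single arrays left out. BUB1B was −0.031 with array weights, −0.013 and −0.030 with the replicate block and without pair 3 or 4, and between −0.14 and 0.12 with single arrays left out. BUB3 was 0.029 after loess and between −0.14 and 0.042 with single arrays left out. MAD2L1 was 0.017 with the replicate block and without pair 4. Besides these, the replicate block changed the calls of the MAD2L1 set 236312_at, CDC26 and CDK1, and CDC26 also passed after loess (limma adjusted p = 0.0167) and with array weights (0.0446). List medians moved by more than the spread between pairs in 29 results and by less in 223. The causes were not tested. The number of arrays, 4 in a group, limits what could be detected, and 6 of the 23 member probe sets had group means between 6.61 and 7.22, below the median gene.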
